A study of Mus musculus with 8 samples.

Results

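The genes described here are 8 transcripts linked to mature dendritic cells, Lamp3, Ccl22, Ccl17, Cd40, Il15, Ccr7, Cd80 and Cd86, all of which were present among the 754 genes of a NanoString nCounter mouse panel. They were chosen by name and selected on their measured DSHN minus DMSO differences, since results of this comparison were already known, so these differences between treatments are given as a description and not as tests. The Balb/c mice carried grafts of 4T1, a mammary tumour line of the mouse known for seeding lung metastases. DSHN, which activates the nuclear receptor NR0B2, or DMSO as placebo was given daily at 10 mg/kg for 7 days, from day 10 after the graft. Each of the 4 DSHN and 4 DMSO samples pooled the lungs of 3 of the 24 mice, and both groups carry the same tumour graft. Cells were taken with magnetic beads against CD11b and CD11c, surface integrins found on dendritic cells but also on macrophages, monocytes and neutrophils. In such bulk samples fewer cells of a type and less RNA per cell cannot be told apart. The age and sex of the mice are not given in the sources used here.

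Dendritic cells that have taken up antigen mature and travel through lymph vessels to the draining lymph node. On the way they switch on a shared set of genes that combines attraction of T cells, costimulation and, in tumours, restraint of T cells, and cells in this state are often recognised by Lamp3 and Ccr7. Ccl22 and Ccl17 are secreted chemokines that bind CCR4, a receptor frequent on regulatory and type 2 helper T cells. Ccr7 is the homing receptor for the lymph node chemokines CCL19 and CCL21. Cd80 and Cd86 are the ligands of CD28 and CTLA4, Cd40 receives the T cell signal CD40L, and Il15 encodes a cytokine that is presented to NK and memory T cells. Lamp3 encodes a lysosomal membrane protein that also occurs in type II alveolar cells of the lung.

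The nCounter assay counts barcoded probes hybridised to RNA with no amplification step, and the level of one probe is therefore not set against that of another. Summed over the genes, the counts were 123700 in DSHN 1 and 533000 to 617600 in the other DSHN samples, against 598100 to 923700 in DMSO samples. Values below are log2 values relative to the mean of 4 housekeeping genes (Oaz1, Ppia, Rpl19 and Tubb5), shifted to the average level of those genes over all samples. As deposited, that housekeeping mean was 10.01 ± 1.44 in DSHN and 11.91 ± 1.03 in DMSO (SD, n = 4 each), so the scaling adds 1.90 to every gene's difference, and 2 samples move most. DSHN 1 is shifted by 3.10 and DMSO 1 by -2.41. Tubb5 stood apart from the other housekeeping genes in DMSO 1, where the 4 spanned 3.76 on the log2 scale, against 1.5 to 2.15 in the other samples.

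Background was the mean plus 2 SD of the 8 negative-control probes of each sample, a limit of 40.1 counts in DSHN 1, 17.9 to 26.2 in the other DSHN samples and 21.0 to 26.9 in DMSO samples. Of the 64 gene-by-sample values, 57 lay above it. Ccl22, Cd80 and Cd86 were above background in all 8 samples. Ccl17, Cd40, Il15 and Ccr7 were above it in every sample but DSHN 1, and Lamp3 in 5 samples. In DSHN 1 only 3 of the 8 genes were above background, so 5 of the 7 values below it came from that sample. Ccl22 and Cd86 cleared the limit there with 43 and 44 counts.

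**Figure D1:**
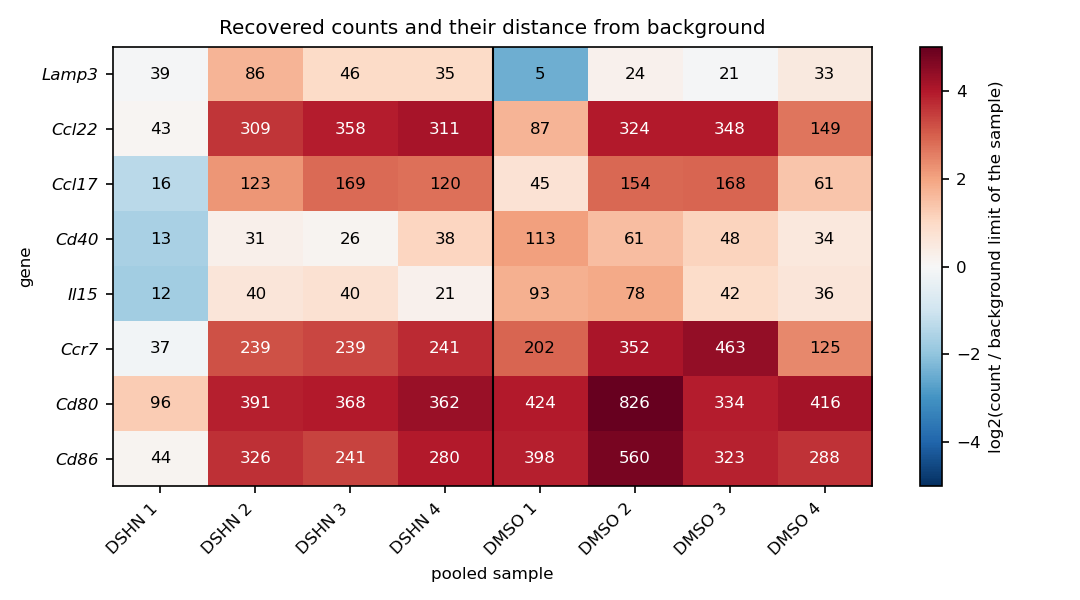
Recovered probe counts (numbers) of the 8 genes (rows) in the 8 pooled samples (columns, DSHN left of the line and DMSO right), coloured by the log2 ratio of the count to the background limit of that sample. Blue cells lie under the limit: 5 of the 8 genes in DSHN 1, and Lamp3 in DMSO 1 (5 counts) and, just under it, in DMSO 3 (21 counts).

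Whether the isolated cells match the label of dendritic cells was checked against marker genes. Transcripts of MHC class II presentation, carried by dendritic cells, B cells and macrophages, were well measured, with H2-Aa at 10.77 to 11.81 in DSHN and 10.66 to 11.93 in DMSO. Flt3, a growth factor receptor carried by conventional dendritic cells, was above background in 1 of 4 DSHN and 1 of 4 DMSO samples. Of the 13 general dendritic cell genes measured, 7 were above background in all 8 samples, among them Itgax, which encodes CD11c, and Id2, a transcriptional regulator. Of 6 type 1 dendritic cell genes measured, Xcr1 and Clec9a, the most specific, were above it in 0 and 1 samples, the transcription factors Batf3 and Irf8 in 7 each and Cd36 in 8. Of 5 type 2 genes measured, Sirpa, Ltb and Klf4 were above it in 8 samples, Irf4 in 7 and Cd209e in 0. Several of these genes are also carried by macrophages or monocytes. Neutrophil genes were abundant, 10 of the 14 measured being above background in all 8 samples. The summed log2 level of that list was 16.14 to 17.28 in DSHN and 16.40 to 17.81 in DMSO. Among other genes of the mature state, Fscn1, an actin-bundling protein of mature dendritic cells, was above background in 3 of 4 DSHN and 4 of 4 DMSO samples. Cd83, a maturation marker, was above it in all 8. The 8 genes are thus measured in a mixture of CD11b- and CD11c-bearing cells, and the cell type behind each transcript is not resolved.

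Lamp3 (chr16:19653381-19706365, GRCm38.p6) was the gene with the largest difference of the 554 tested, and the one of the 8 above background in the fewest samples. Its counts were 39, 86, 46 and 35 in DSHN 1 to 4, against 5, 24, 21 and 33 in DMSO 1 to 4. Relative to housekeeping genes the values were 7.66, 6.27, 5.72 and 5.26 in DSHN, against 2.68, 3.97, 4.09 and 4.93 in DMSO. Every DSHN sample was higher than every DMSO sample on this scale, as for 2.53% of all genes tested, and the group means differed by 2.31 (95% interval 0.93 to 3.69). The highest value, in DSHN 1, and the lowest, in DMSO 1, both lay under their background limits, which stood at 7.69 and 5.11 on the same scale. Over the samples above background alone, the 3 DSHN values were 5.26 to 6.27 and the 2 DMSO values 3.97 and 4.93, a difference of 1.30. Leaving samples out of separate groups cannot make them overlap, so only the size of this difference is read. With every value under background placed at its limit the difference was 1.69. The nearest samples, DSHN 4 and DMSO 4, had 95% counting intervals of 24.4 to 48.7 and 22.7 to 46.3 counts, which overlap almost entirely; such intervals cover counting error only.

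As deposited, Lamp3 hardly varied. Deposited values already carry a factor for each sample from the positive-control spike-ins, 0.605 in DSHN 1 and 6.83 in DMSO 1. Before that factor the counts of Lamp3 ran from 5 in DMSO 1 to 86 in DSHN 2. The deposited log2 value of Lamp3 spanned 1.57 over the 8 samples, the second smallest span of the 554 genes. The other 7 genes spanned 4.52 to 6.68 and the housekeeping mean 5.51. Of the difference of 2.31, 0.41 was present in the deposited values and the housekeeping shift supplied the rest. The deviations of Lamp3 from its group means had r = 0.93 with that shift. Ido1, not among the genes tested and above background in 0 of 8 samples, differed by 2.38 relative to housekeeping genes. Cdh1, an epithelial cadherin that some dendritic cells also carry, was the only epithelial marker measured of 12 listed. It stood at 7.42, 7.41, 7.21 and 7.16 in DSHN 1 to 4, against 6.65, 6.94, 7.11 and 6.88 in DMSO 1 to 4, and it was above background in 3 and 4 samples. The 2 groups did not overlap for Cdh1 either, and the part of epithelial RNA in the Lamp3 values was not tested.

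**Figure D2:**
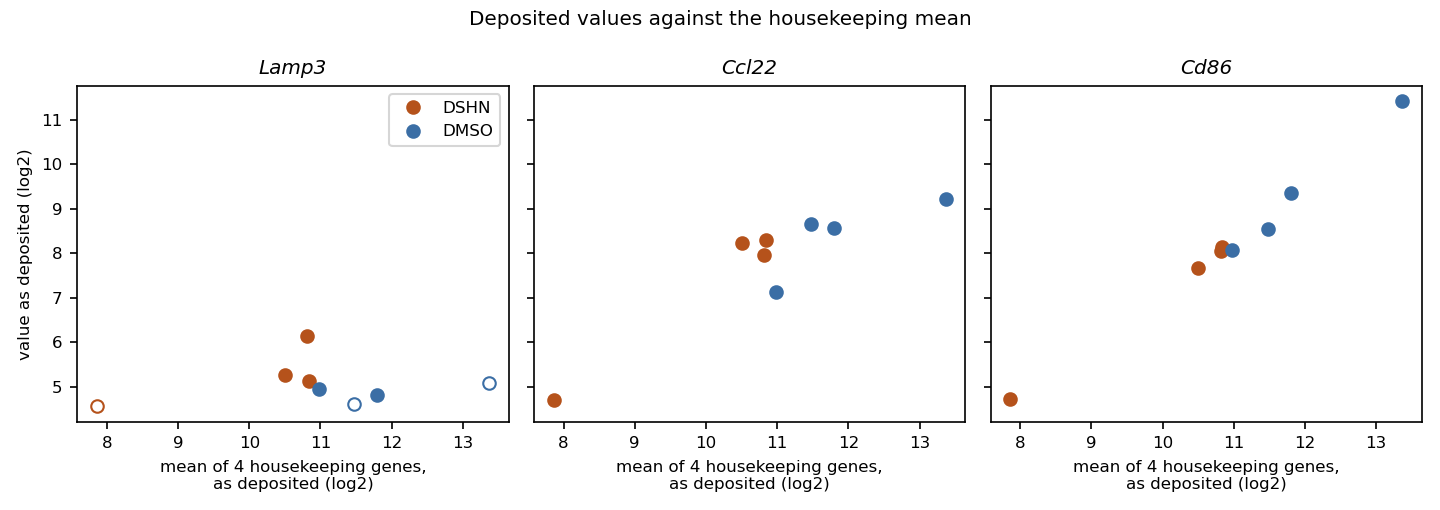
Deposited log2 value of Lamp3, Ccl22 and Cd86 (vertical axis) against the mean of the 4 housekeeping genes in the same sample (horizontal axis, log2), with DSHN in orange, DMSO in blue and open circles for values under background. Cd86 follows the housekeeping mean over a span of 6.68, Ccl22 over 4.52, and Lamp3 stays within 1.57.

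Ccl22 (chr8:94745684-94751388) and Ccl17 (chr8:94809380-94812038) are neighbours, 57991 bases apart in GRCm38.p6, with the chemokine gene Cx3cl1 among the genes between them. Because their transcripts moved together over the samples, the RefSeq promoter windows of both are shown, 250 bases before to 50 after a transcript start, 5′ to 3′ on the plus strand. The windows are chr8:94745434-94745733 for Ccl22 and chr8:94810203-94810502 for Ccl17, and the second window lies inside the span annotated for the gene. Capitals mark matches, on either strand, to a loose form of the NF-kB site (GGG, any 5 bases, CC) or to the site spacing bound by STAT6 (TTC, any 4 bases, GAA).
Ccl22: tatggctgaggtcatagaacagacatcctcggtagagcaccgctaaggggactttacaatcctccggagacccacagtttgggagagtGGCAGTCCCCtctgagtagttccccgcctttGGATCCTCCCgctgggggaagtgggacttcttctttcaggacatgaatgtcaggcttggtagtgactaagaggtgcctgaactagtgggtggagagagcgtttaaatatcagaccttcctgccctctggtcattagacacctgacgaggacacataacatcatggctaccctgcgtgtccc
Ccl17: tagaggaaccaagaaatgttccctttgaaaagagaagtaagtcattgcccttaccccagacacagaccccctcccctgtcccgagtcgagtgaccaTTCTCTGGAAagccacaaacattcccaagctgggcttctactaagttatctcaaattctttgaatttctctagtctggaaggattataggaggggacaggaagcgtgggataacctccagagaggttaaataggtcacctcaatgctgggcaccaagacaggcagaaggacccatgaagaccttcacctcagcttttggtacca
The Ccl22 window held 2 NF-kB matches, which start 162 and 131 bases before the transcript start, and 0 STAT matches. The Ccl17 window held 1 STAT match, starting 154 bases before the start, and 0 NF-kB matches. Of all 32851 mouse promoter windows of this length, 50.8% held an NF-kB match and 6.95% a STAT match. The letters describe the windows and do not show binding.

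Ccl22 had 43, 309, 358 and 311 counts in DSHN 1 to 4, against 87, 324, 348 and 149 counts in DMSO 1 to 4. Relative to housekeeping genes it stood at 7.80, 8.11, 8.68 and 8.41 in DSHN, against 6.81, 7.72, 8.14 and 7.11 in DMSO. DMSO 1 and DMSO 4 were the low samples, and DMSO 3 lay within the DSHN range, so the groups overlapped. The mean was 8.25 ± 0.38 in DSHN and 7.44 ± 0.60 in DMSO (SD, n = 4 each), a difference of 0.81 (95% interval 0.07 to 1.54). Leaving out 1 sample at a time gave differences between 0.60 and 1.04.

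Ccl17 was fainter against background, with the same order of samples as Ccl22 in DSHN and nearly the same order in DMSO. It had 16, 123, 169 and 120 counts in DSHN 1 to 4, against 45, 154, 168 and 61 counts in DMSO 1 to 4. The scaled values were 6.37, 6.78, 7.60 and 7.04 in DSHN, against 5.85, 6.65, 7.09 and 5.82 in DMSO, where the value of DSHN 1 lay under background. DMSO 1 and DMSO 4 were again the low samples, and the groups overlapped through DMSO 2 and DMSO 3. The means differed by 0.60 (95% interval -0.24 to 1.43), by 0.79 over the samples above background, and by 0.38 to 0.84 with 1 sample left out, the lowest without DSHN 3. With the mean of the negative controls subtracted the sign turned, to -0.27; the 16 counts of DSHN 1 lie under the 16.6 counts subtracted there.

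The ratio between the chemokines needs no scaling between samples, and only its change from sample to sample is read, since the probes differ. The log2 value of Ccl22 minus that of Ccl17 was 1.43, 1.33, 1.08 and 1.37 in DSHN 1 to 4, against 0.96, 1.07, 1.05 and 1.29 in DMSO 1 to 4. The ratio of Ccl22 to Ccl17 spanned 0.47 log2 units over the samples, or 0.41 without DSHN 1, where Ccl17 lay under background. Ccl22 itself spanned 1.875 relative to housekeeping genes. Its deposited span of 4.52 includes shifts shared by all genes of a sample, which cancel in any ratio. The ratio of Cd80 to Cd86 spanned 1.08. Against Ccr7, Ccl22 stood at 0.22, 0.37, 0.58 and 0.37 in DSHN, against -1.21, -0.12, -0.41 and 0.25 in DMSO. The means differed by 0.76, and the groups overlapped through DMSO 4, at 0.25, and DSHN 1, where Ccr7 lay under background. Without DSHN 1 the lowest DSHN value was 0.37 and the difference was 0.81. Only DSHN 1 among the DSHN samples lay under DMSO 4, so leaving it out had to separate the groups. Only the size of this difference is read. Against Cd86, Ccl22 stood at -0.03, -0.08, 0.57 and 0.15 in DSHN, against -2.19, -0.79, 0.11 and -0.95 in DMSO, a difference of 1.11 in the means. DMSO 3 was again the sample that lay within the DSHN range.

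Ccr7 (chr11:99144199-99155077) did not follow the chemokines in its group means. It had 37, 239, 239 and 241 counts in DSHN 1 to 4, against 202, 352, 463 and 125 counts in DMSO 1 to 4. The scaled values were 7.58, 7.74, 8.10 and 8.04 in DSHN, against 8.02, 7.84, 8.55 and 6.86 in DMSO. All DSHN values lay inside the DMSO range, whose ends were DMSO 4 and DMSO 3. The difference of 0.05 (95% interval -0.71 to 0.81) turned to -0.27 without DMSO 4, to -0.03 without DSHN 3 and to -0.01 without DSHN 4. Ccr7 is also a transcript of naive T cells and B cells. Of 16 T cell genes listed 3 were measured, and Cd247, Cd28 and Icos were above background in 3, 3 and 2 DSHN samples and in 3, 2 and 2 DMSO samples. Their summed log2 level was 6.26 to 6.74 in DSHN 2 to 4 and 5.70 to 6.65 in DMSO. In DSHN 1 it was 8.17, with all of these genes under background. The B cell marker Ms4a1, the only one measured of 10 listed, stood at 6.08 to 6.74 in DSHN 2 to 4 and 5.96 to 6.45 in DMSO, and at 7.07, under background, in DSHN 1. The part of these cells in the Ccr7 values was not tested.

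The costimulatory ligands were the steadiest of the 8. Cd80 (chr16:38457430-38495958) had 96, 391, 368 and 362 counts in DSHN 1 to 4, against 424, 826, 334 and 416 counts in DMSO 1 to 4. Its scaled values were 8.96, 8.45, 8.72 and 8.63 in DSHN, against 9.09, 9.07, 8.08 and 8.59 in DMSO. The DSHN values sat inside the DMSO range, and the means differed by -0.02 (95% interval -0.61 to 0.57). Cd86 (chr16:36568956-36666158) had 44, 326, 241 and 280 counts in DSHN 1 to 4, against 398, 560, 323 and 288 counts in DMSO 1 to 4. It stood at 7.83, 8.19, 8.11 and 8.26 in DSHN, against 9.0, 8.51, 8.03 and 8.06 in DMSO, where DMSO 1 was high. The difference of -0.30 (95% interval -0.87 to 0.27) shrank to -0.10 without DMSO 1 and to -0.01 without DSHN 1 and DMSO 1.

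Cd40 (chr2:165055614-165071654) and Il15 (chr8:82331624-82403252) were low against background. DSHN 1 lay under its limit for both, and the other samples had 1.11 to 4.19 times the limit for Cd40 and 1.17 to 3.73 times for Il15. Cd40 had 13, 31, 26 and 38 counts in DSHN 1 to 4, against 113, 61, 48 and 34 counts in DMSO 1 to 4. The scaled values were 6.07, 4.79, 4.90 and 5.38 in DSHN, against 7.18, 5.31, 5.28 and 4.98 in DMSO. DMSO 1 stood far above the other DMSO samples, and the highest DSHN value, in DSHN 1, was under background. The difference of -0.40 (95% interval -1.57 to 0.77) turned to 0.10 without DMSO 1, was -0.66 without DSHN 1 and -1.48 with the mean of the negative controls subtracted. Il15 had 12, 40, 40 and 21 counts in DSHN 1 to 4, against 93, 78, 42 and 36 counts in DMSO 1 to 4. It stood at 5.96, 5.16, 5.52 and 4.52 in DSHN, against 6.90, 5.67, 5.09 and 5.06 in DMSO. DMSO 1 was again the highest sample, and the difference of -0.39 (95% interval -1.48 to 0.70) turned to 0.02 without it, was -0.61 without DSHN 1 and -1.39 with the negative controls subtracted. The summed level of 10 interstitial macrophage genes was also highest in DMSO 1, at 13.82, against 11.90 to 12.70 in DSHN and 12.25 to 12.47 in the other DMSO samples. This was not particular to that list. The summed neutrophil, monocyte and other mature dendritic cell genes were among those also highest there, at 17.81, 14.47 and 14.90. The stroma sum was highest there too, at 12.27, nearly all of it Fn1 at 12.17. None of the other stroma genes measured was highest in DMSO 1, and Col1a2 and Col3a1 were highest in DMSO 3. The alveolar macrophage and eosinophil sums were not highest in DMSO 1. The part of any of these cells in the Cd40 and Il15 values was not tested.

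**Figure D3:**
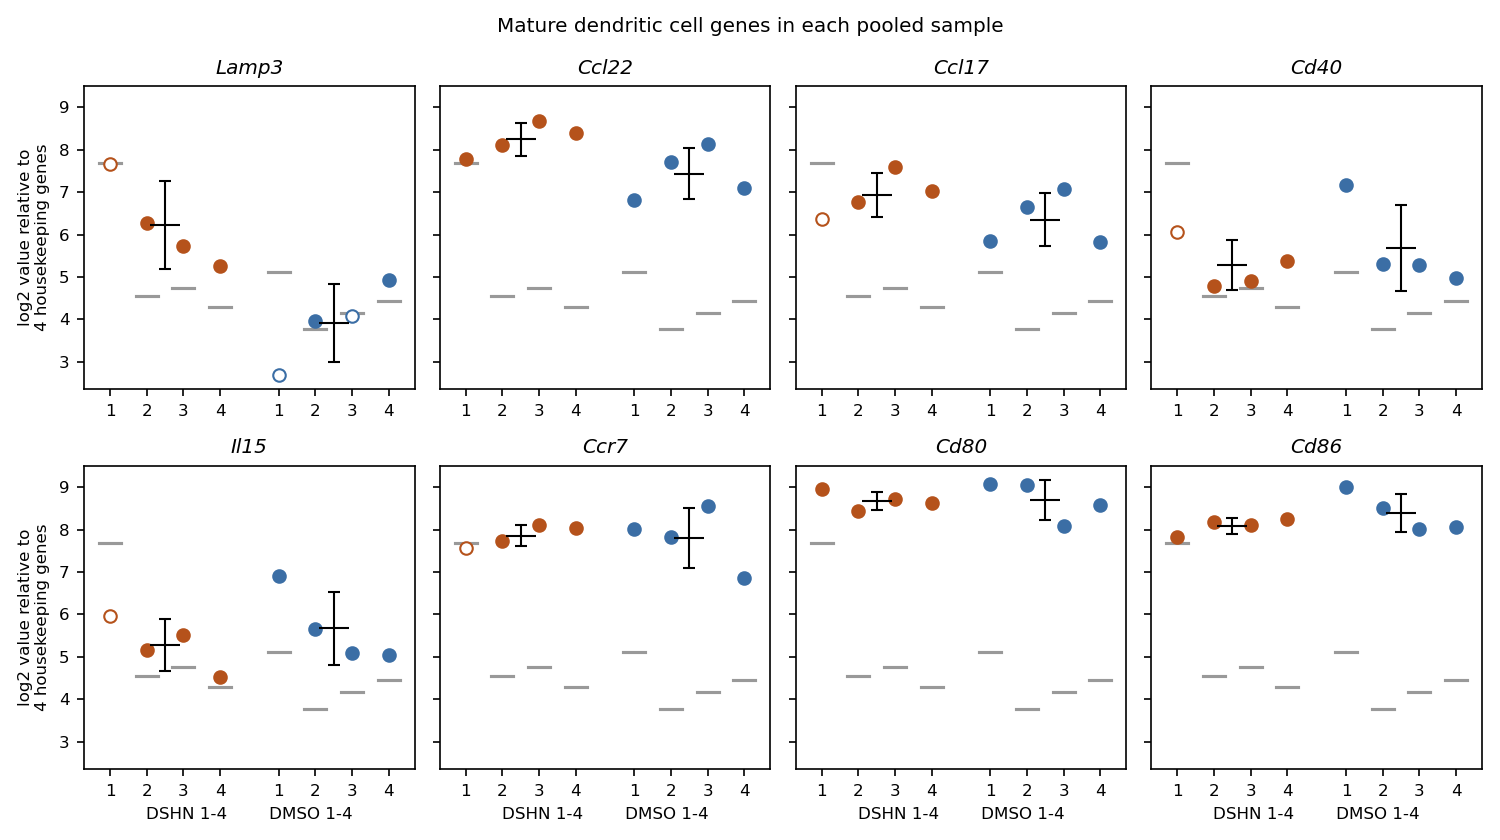
Log2 value relative to 4 housekeeping genes (vertical axis) of each gene in DSHN 1 to 4 (orange, left) and DMSO 1 to 4 (blue, right), with grey bars for the background limit of each sample, open circles for values under it, and black lines for the group mean ± SD (n = 4). The groups are separate only for Lamp3, whose extreme samples, at 7.66 and 2.68, are open circles.

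Across the 554 genes tested, 0 passed the threshold for DSHN against DMSO (limma with Benjamini-Hochberg adjustment, 0% called), and so 0 of the 8 genes did. An unadjusted p under 0.05 was reached by 20 genes, 3.61% of those tested, Lamp3 and Ccl22 among them. Complete separation of the groups with DSHN higher was seen for 14 genes (2.53%) and for 1 of the 8, Lamp3. As the genes were chosen with this comparison known, nothing is read from these counts. On balance 4 of the 8 genes were higher and 4 lower, with a median difference of 0.02, beside 0.03 over all genes tested. As deposited, 7 of the 8 were lower in DSHN, with a median of -1.89 beside -1.87 for all genes, and Lamp3 was the one higher.

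**Figure D4:**
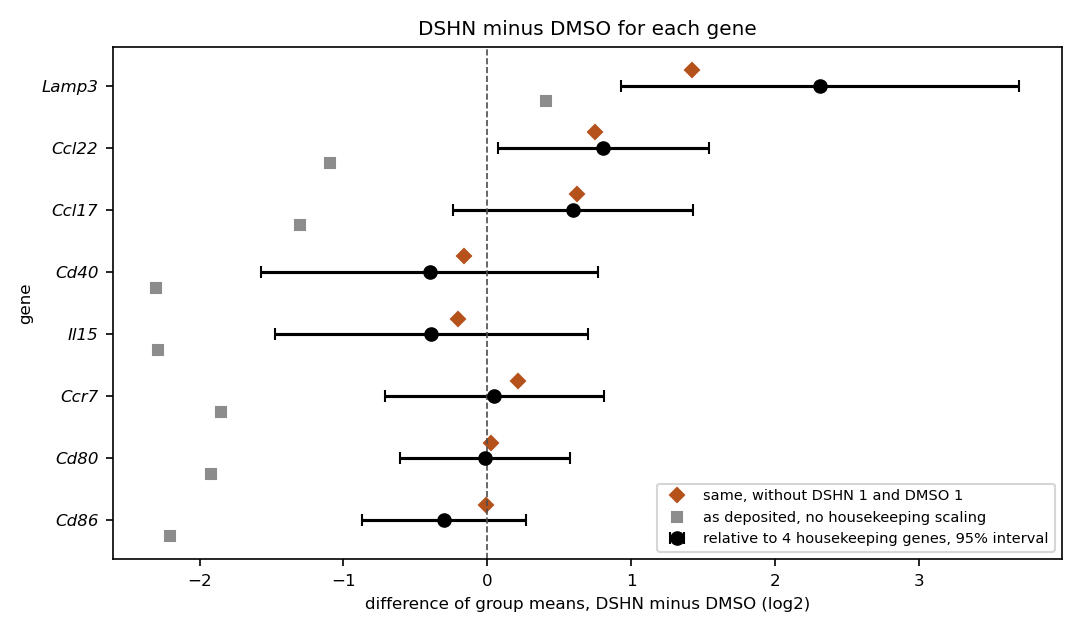
Difference of group means, DSHN minus DMSO (log2), for each gene: relative to 4 housekeeping genes with its 95% interval (black), the same without DSHN 1 and DMSO 1 (orange diamonds) and as deposited (grey squares). Lamp3 and Ccl22 have intervals above 0, and the as-deposited differences of the other 7 genes lie between -2.30 and -1.10 while that of Lamp3 is 0.41.

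Whether the genes vary together was asked on the deviations of each sample from its group mean, which leaves the treatment difference out, for the 7 genes above background in at least 6 samples. Over their 21 pairs Pearson's r ranged from -0.62 to 0.97 with a median of 0.17, and 12 pairs were positive. The median over all 153181 pairs of tested genes was 0.22, so the typical pair of the 7 was no closer than a typical pair of the panel. Ccl22 and Ccl17 were the closest pair, with r = 0.97 and Spearman's rho = 0.93 (n = 8, exact two-sided permutation within groups, p = 0.00347 and 0.0104; adjusted over the 21 pairs 0.0729 and 0.219). Without the 2 samples farthest from the median of Ccl22, DMSO 1 and DMSO 4, r was 0.98, and leaving out any 1 sample gave 0.96 to 0.99. Among all pairs of tested genes, 3.53% had r over 0.9. None of the 21 pairs passed after adjustment.

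Read by sign, the pairs fell into 2 sets, a grouping made after the values were seen. Ccl22, Ccl17 and Ccr7 had r of 0.62 to 0.97 among themselves, and Cd40, Il15, Cd80 and Cd86 had r of 0.54 to 0.80. Between the sets 9 of 12 pairs were negative, from -0.62 for Ccl22 with Cd40 to 0.25 for Ccr7 with Cd86. Leaving out the 2 samples farthest from the median of 1 gene of each pair, which differ by pair, gave a lower r for 5 of the 6 pairs of the second set and a higher one for Il15 with Cd80, 0.83 in place of 0.71. Cd40 and Il15 had r = 0.80 and rho = 0.60 (n = 8, exact two-sided permutation within groups, p = 0.0608 and 0.167, adjusted 0.425 and 0.594), which turned to -0.44 without DSHN 1 and DMSO 1. Cd80 and Cd86, the paired ligands, had r = 0.57 and rho = 0.64 (n = 8, exact two-sided permutation within groups, p = 0.321 and 0.234, adjusted 0.519 and 0.615), and 0.02 without DMSO 1 and DMSO 3. An error in the housekeeping scale of a sample is shared by all genes and adds to each of these correlations.

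**Figure D5:**
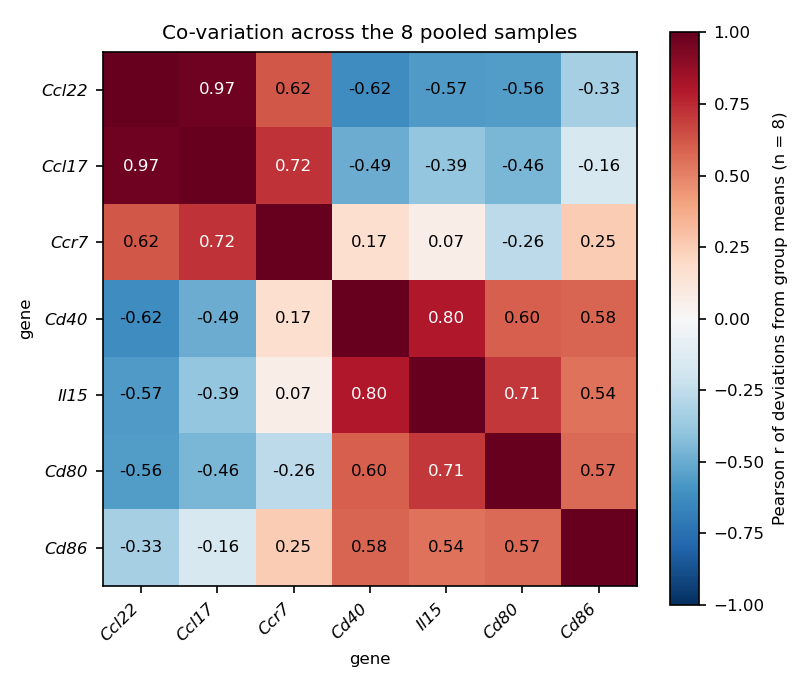
Pearson's r of the deviations from group means over the 8 samples for each pair of the 7 genes above background in at least 6 samples (rows and columns), red for positive and blue for negative. The chemokines with Ccr7 form the red upper left corner (0.62 to 0.97), Cd40, Il15, Cd80 and Cd86 the lower right (0.54 to 0.80), and the fields between are mostly blue.

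The genes most like each of the 7 were sought among the 503 others above background in at least 6 samples, again by r of deviations over 8 samples and as a description. For both Ccl22 and Ccl17 they were Chil3 and Chil4, chitinase-like proteins of lung macrophages, with r of 0.88 for Chil4 and 0.86 for Chil3 to Ccl22 and 0.82 for each to Ccl17. Chil3 and Chil4 are closely related copies, and reads of 1 by the probe of the other are possible. Ccr7 was closest to Hdc, the enzyme that makes histamine (0.97), and to H2-Ea-ps, an MHC class II locus (0.89). Cd86 was closest to Cd14, a coreceptor for bacterial lipopolysaccharide (0.97), and to the neutrophil chemokine Cxcl3 (0.95). The deviations of Cd86 also had r = -0.81 with the housekeeping shift of the samples, and the part of that shift in these likenesses was not tested. Cd80 followed Gch1, an enzyme of biopterin synthesis (0.95), and Rab20, a small GTPase (0.91). Cd40 followed the leukotriene receptors Ltb4r1 (0.99) and Cysltr1 (0.98), and Il15 followed Tnfrsf1b, a TNF receptor (0.96), and the cytokine receptor Il21r (0.93). In DMSO 1 Cd40, Ltb4r1 and Cysltr1 stood at 7.18, 7.49 and 6.92, their highest values of the 8 samples, and without it r was 0.98 for Ltb4r1 and 0.92 for Cysltr1. Leaving out any 1 sample kept r at 0.77 or above for all of these genes except H2-Ea-ps, which fell to 0.65 without DMSO 4.

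Of the partners of these genes, few were measurable. Ccr4, the receptor for CCL22 and CCL17, was above background in 0 of 8 samples, with 13 to 18 counts in DSHN and 7 to 10 in DMSO. The Ccr7 ligands Ccl19 and Ccl21a and the Cd40 ligand Cd40lg were also above it in 0 of 8. Cd28 and Ctla4, the T cell receptors for CD80 and CD86, were above background in 3 and 0 DSHN samples and in 2 and 2 DMSO samples. Icos, a costimulatory receptor of activated T cells, was above it in 2 DSHN and 2 DMSO samples. Il15ra, which presents IL-15 on the cell surface, was above background in 2 of 4 DSHN and 1 of 4 DMSO samples and differed by 0.75 (95% interval -0.81 to 2.31).

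A wider list of mature dendritic cell genes had 36 of 56 members on the panel, 28 of them tested. In DSHN 15 were higher and 13 lower, with a median difference of 0.04, and 0 passed in either direction (limma, Benjamini-Hochberg), with 0 also at an unadjusted p under 0.05. The 4 with the highest difference were Il15ra, Socs2 (0.39), a brake on cytokine signalling, Pdcd1lg2 (0.35), the checkpoint ligand PD-L2, and Il12b (0.34), a subunit of interleukins 12 and 23. At the other end were Cd274 (-0.38), the checkpoint ligand PD-L1, Tnfaip3 (-0.37), an inhibitor of NF-kB, and the chemokines Ccl5 and Cxcl16 (-0.26 each). Pdcd1lg2 stood at 6.96, 6.33, 6.15 and 6.24 in DSHN 1 to 4, against 6.32, 6.20, 5.96 and 5.80 in DMSO 1 to 4, with DSHN 1 under background. Cd274 stood at 9.94, 10.61, 10.47 and 10.76 in DSHN, against 11.36, 10.84, 10.53 and 10.59 in DMSO. The groups overlapped for both ligands. Cd70, Tnfsf4, Tnfrsf4, Tnfrsf9, Stat4, Ccl19 and Ido1 were above background in 0 of 8 samples. Without DSHN 1 and DMSO 1, 21 of the 28 lay higher in DSHN and their median was 0.13, beside 330 of 554 genes and a median of 0.06 over the panel.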

How the data were processed

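Per the labels' protocols, pooled lungs were dissociated enzymatically, cells were isolated with CD11b and CD11c beads and RNA was purified on columns. The authors deposited log2 values with 2 decimals for 768 probes (754 genes, 6 positive and 8 negative controls) in 8 samples; the software that made them is unstated in the labels. Control probes are whole counts, and gene values under 40 counts are whole multiples of 1 step per sample (largest deviation 0.00502 on the log2 scale), near a spike-in factor from 5 positive controls. Dividing by this factor (0.605 to 6.83) gave the recovered counts, exact only where low; 3 values were listed at 0. With sums of 123700 to 923700 counts, DSHN 1 was the shallowest sample. The sample weights estimated in 1 alternative fit were lowest for DMSO 1 (0.156) and next lowest for DSHN 1 (0.248).

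The 8 genes, the gene lists and the housekeeping scale were chosen with earlier results of these data known. Differences are from limma 3.58.1 (R 4.3.3) with a variance trend, DSHN minus DMSO without covariates, over the 554 genes at 20 or more in at least 4 samples, with Benjamini-Hochberg adjustment at 0.05. Pools count as replicates. Correlations used deviations from group means with exact permutation within groups (576 arrangements). Named beyond the 8 are the 2 genes closest to each, the ends of the mature dendritic cell list, partners, and defining markers. The fit and the permutation were tested on simulated data. Alternatives were other scalings, filters, a replicate block, sample weights, no variance trend, background subtraction, other background limits and left-out samples; added after seeing the data were the use of samples above background only and of values set to the limit, and the left-out samples for nearest genes, ratios and the Ccl22 to Ccl17 correlation. Same-numbered samples did not deviate together (r of -0.18, 0.14, 0.02 and -0.29 for numbers 1 to 4), so the numbers were not taken as pairs. Gene positions and promoters are from RefSeq, GRCm38.p6; 8 of 8 symbols matched, and 4 of 8 (Lamp3, Ccl22, Ccl17 and Cd80) have a promoter in the table used.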

Additional observations from a re-analysis of the deposited data

Results flagged for a closer look

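Cd40 in DMSO 1 stood at 7.18 relative to housekeeping genes, against 4.98 to 5.31 in the other 3 DMSO samples, and its gap to the nearest of them was 0.85 of the range of the group, above Dixon's 95% critical value for 4 samples. It was the only such value among the 24 groups of 4 examined (the 8 genes and 4 ratios between them in each treatment), where chance gives about 1 in 20. DMSO 1 also had the lowest spike-in counts, with a geometric mean of 562.6 against 3281 to 6392 in the other samples, and Tubb5 stood apart from the other housekeeping genes there. The part of either in the Cd40 value was not tested.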

How the results depend on the processing

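The count of genes past the threshold was 0 in every alternative run except gene-by-gene sample weights, which gave 1, Csf2, and no member of the 8. It was also 0 with the replicate block and without each sample in turn. At an unadjusted p under 0.05 the count was 20, and between 4 (genes above background in all 8 samples) and 196 (as deposited) elsewhere, with 11 under the replicate block. The median difference of the 8 genes, 0.02, was -1.89 as deposited and ranged from -0.16 to 0.11 when 1 sample was left out; the other alternatives kept it within the SD of the sample medians, 0.40. The median pairwise correlation, 0.17, was 0.89 as deposited and ranged from -0.37 (without DMSO 4) to 0.43 (without DMSO 3). Values above background numbered 57 of 64, and 51 with mean plus 3 SD or 58 with the highest negative control as the limit. By gene, Lamp3 was higher in DSHN in 18 of 18 alternatives (0.41 to 3.00), Ccl22 in 16 of 17, Ccl17 in 16 of 18, and Cd86 was lower in 17 of 17. Cd40 and Il15 were lower in 16 of 18 each, Ccr7 was higher in 13 of 18 and Cd80 in 8 of 17. For Lamp3, whose groups were separate, the runs that only left samples out could not have turned the sign. The alternatives reuse the same samples, so these counts by gene are a description and not a test. The replicate block left each difference as it was, since the design is balanced, and changed no other call. Depth limits Lamp3, Cd40 and Il15, with 5 to 86, 13 to 113 and 12 to 93 counts, and, in DSHN 1, Ccl17 and Ccr7, which lie under the background limit.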

Other observations

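In DMSO 1 several other genes of the mature dendritic cell list were also at their highest, named here after their values were seen. The T cell chemokine Ccl5 stood at 9.96 in DMSO 1, against 7.82 to 8.0 in DSHN and 7.36 to 7.99 in the other DMSO samples. Marcksl1, a regulator of the actin cytoskeleton, stood at 12.71 there, against 11.28 to 11.72 in DSHN and 10.48 to 11.47 in the other DMSO samples. Il10, an immunosuppressive cytokine, stood at 7.06, against 4.59 to 6.06 in DSHN and 4.21 to 4.97 in the other DMSO samples, and it was above background in 3 samples of each treatment. Fscn1 was also at its highest in DMSO 1, at 7.77, but close to the 7.57 reached in DSHN. It was set apart more by its low value in DMSO 4, 5.96, the sample in which Ccr7 and Ccl17 were also lowest of the 8. Fscn1 stood at 7.13 to 7.57 in DSHN and at 7.35 to 7.77 in the other DMSO samples. Some markers of other cells were also highest in DMSO 1, and others were not. Apoe, C1qa and Fn1, carried by macrophages or stroma, stood at 11.93, 10.28 and 12.17 there. Irf7, an interferon-response regulator, stood at 11.41, against 7.66 to 7.94 in DSHN and 7.30 to 7.88 in the other DMSO samples. From the same macrophage and stroma lists, Mertk and Pdgfra were at their lowest in DMSO 1, at 6.76 and 2.68. The Pdgfra value there, 5 counts, lay under background, and Pdgfra was above background in 1 sample of each treatment. The summed alveolar macrophage level was 13.14 in DMSO 1, against 12.96 to 15.02 in DSHN and 14.14 to 14.84 in the other DMSO samples. Chil3, at 12.56 in DMSO 1, weighed most in that sum. Of the same list Pparg, Fabp4, Lpl, Siglecf and Olr1 were at their lowest in DMSO 1, and Siglec1 at its highest, 8.36. The part of these cells in the values of DMSO 1 was not tested.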
